A study of Rattus norvegicus with 20 samples.

Results

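The genes described here are annotated to the breakdown of the branched-chain amino acids leucine, isoleucine and valine, and were measured in rat skeletal muscle after hindlimb ischemia. They are the rows of the deposited gene table whose KEGG annotation names the pathway for valine, leucine and isoleucine degradation and that were chosen by their deposited FPKM, with 1 FPKM or more in 5 or more of 20 libraries. FPKM are fragments per kilobase of transcript scaled to the size of the library, so they allow levels of different genes to be compared. Acads, Acadm, Hadha, Hadhb, Hadh and Echs1, which also serve fatty acid beta-oxidation, were left out. Acaa2, Acaa1a, Ehhadh, Hsd17b10 and LOC100911186 share an enzyme (EC) number with some of those and stayed in. Of 21926 rows, 52 carry the pathway's name, 6 of those were left out by name, 10 were below the FPKM minimum, and 36 genes remained. FPKM entered the choice only through that minimum over all 20 libraries, whatever the group, and 30 of the 36 met it in every library. Just inside it were Il4i1, at 1 FPKM or more in 5 libraries with a highest value of 1.36 FPKM, and Aacs, in 6 libraries with a highest value of 1.40 FPKM. Just outside were Acat2l1 and Acat2, each in 2 libraries, with highest values of 1.28 and 1.08 FPKM. The number of genes that reached 1 FPKM in only 1 group was 0, but some met the minimum mainly through 1 muscle. Ehhadh reached it in 5 ischemic and 4 sham gastrocnemius libraries, against 2 ischemic and 0 sham soleus libraries. Bcat1 did so in 1 and 2 gastrocnemius libraries, against 5 and 3 soleus libraries in that order. Aacs and Il4i1 reached it in 0 sham soleus libraries. For such genes the minimum itself may favour a difference between groups.

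All animals were Sprague Dawley rats. The 4 groups of 5 libraries are gastrocnemius after ischemia, gastrocnemius after a sham operation, soleus after ischemia and soleus after a sham operation. Ischemia had been produced by an endovascular catheter occlusion at the ilio-femoral level. Poly(A) RNA was sequenced as stranded, paired-end libraries. The labels give neither the time from operation to sampling nor the age and sex of the rats, and do not say whether libraries of a group come from separate animals.

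In muscle, breakdown of branched-chain amino acids starts inside the mitochondrion. An aminotransferase moves the amino group to alpha-ketoglutarate, and the branched-chain keto acid dehydrogenase complex then removes a carboxyl group in the committed, irreversible step. A kinase switches that complex off and a phosphatase switches it on. Separate branches follow: leucine ends as acetoacetate and acetyl-CoA, valine as propionyl-CoA, and isoleucine as acetyl-CoA and propionyl-CoA, which a biotin- and cobalamin-dependent branch turns into succinyl-CoA for the citric acid cycle. Skeletal muscle is known as a main site of the first step in the body.

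The libraries held 53572270 to 85416565 counts. Fibre markers matched the labelled muscles: 11 slow-fibre genes summed to 515 to 25662 CPM in gastrocnemius and 54836 to 170245 CPM in soleus, and 10 fast-fibre genes to 71664 to 224888 CPM in gastrocnemius and 2186 to 11496 CPM in soleus. CPM are counts divided by each library's TMM-scaled size, with no correction for gene length. Library 4 of sham soleus stood apart: it had 8048 genes at 1 FPKM or more, where the rest of its group had 10644 to 10876, and its median correlation with them was 0.773, where theirs were 0.979 to 0.981. Its TMM factor was 0.495, against 1.07 to 1.09 in the rest of sham soleus and 1.18 to 1.27 in ischemic soleus, which raises its CPM above what library totals alone would give. By deposited FPKM, which carry no TMM scaling, it was the lowest of sham soleus for 25 of the 36 genes, the highest for 10 and within its group for 1. Each test below was therefore made on all 20 libraries and again without sham soleus 4. Genes were called at a Benjamini-Hochberg adjusted p below 0.05 over 11693 genes in edgeR's quasi-likelihood test.

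Mean levels of the pathway's genes ran from below 1 FPKM to above 100 FPKM in each group. Per length, the highest mean levels in sham soleus were those of Oxct1 at 264 ± 131 FPKM, Acaa2 at 256 ± 50.5 FPKM and Acat1 at 232 ± 55.3 FPKM (SD, n = 5). Oxct1 activates ketone bodies, Acat1 is the mitochondrial acetoacetyl-CoA thiolase shared by isoleucine and ketone body breakdown, and Acaa2 is a mitochondrial thiolase. The same 3 genes had the highest means in ischemic soleus, at 225 ± 68.4, 200.2 ± 52.4 and 191 ± 33.5 FPKM in that order, and their spreads overlapped in both groups. The median of the 36 mean levels was 19.4 FPKM in ischemic gastrocnemius, 20.5 FPKM in sham gastrocnemius, 17.7 FPKM in ischemic soleus and 18.2 FPKM in sham soleus. The lowest mean level in a group lay between 0.497 and 0.807 FPKM.

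Within the keto acid dehydrogenase complex, Dld, the shared E3 subunit that also serves pyruvate and alpha-ketoglutarate dehydrogenase, had 99.2 ± 14.6 FPKM in ischemic gastrocnemius, 82.0 ± 16.7 in sham gastrocnemius, 91.9 ± 5.39 in ischemic soleus and 80.1 ± 35.4 in sham soleus. Library 4 of sham soleus had 17.2 FPKM of Dld, and without it the sham soleus mean was 95.9 ± 3.98 FPKM, above that of ischemic soleus. Dbt, the E2 core subunit, had the lowest mean of the 4 subunits in each group, between 16.2 and 18.8 FPKM. The E1 alpha and beta subunits, Bckdha and Bckdhb, form one enzyme, and their FPKM ratio, singled out after its values were seen, was 1.08 ± 0.294 in ischemic gastrocnemius, 1.19 ± 0.469 in sham gastrocnemius, 2.18 ± 0.359 in ischemic soleus and 2.49 ± 0.584 in sham soleus without library 4 (SD, n = 5, and 4 in sham soleus). Library 4 of sham soleus alone had 9.03. The ratio in each ischemic soleus library, 1.78 to 2.61, lay above that in each ischemic gastrocnemius library, 0.774 to 1.37. After sham the muscles overlapped, with 0.805 to 2.00 in gastrocnemius and 1.81 to 3.18 in soleus outside library 4.

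**Figure D1:**
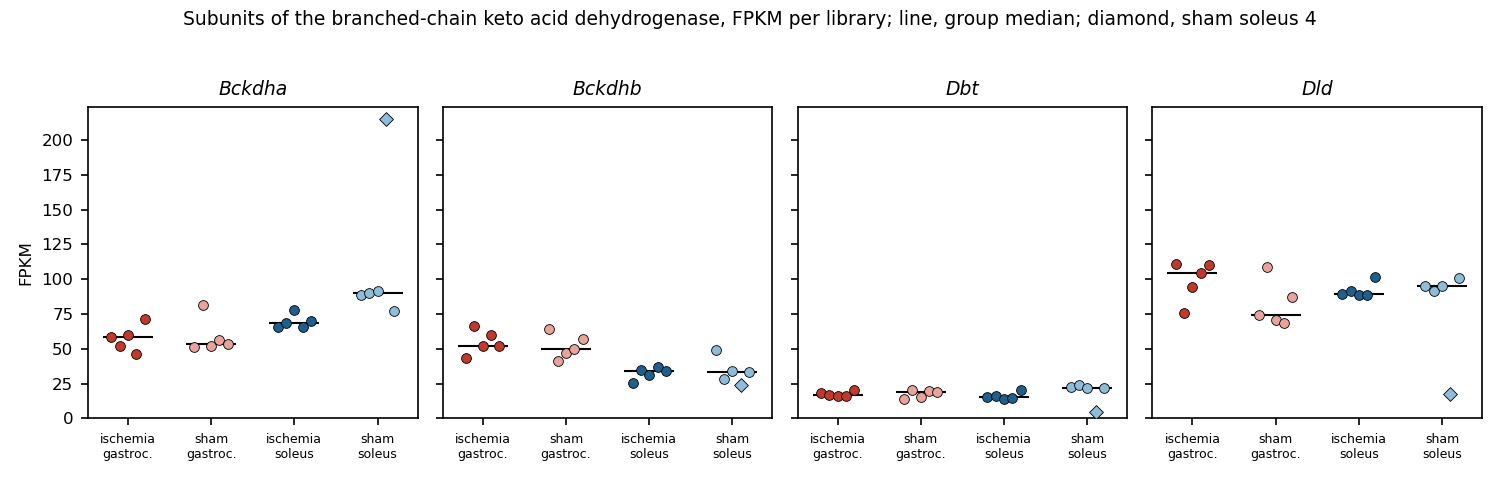
FPKM of the subunits of the branched-chain keto acid dehydrogenase in each library (points) with the group median (line), on a linear axis from 0; the diamond is sham soleus library 4. Bckdha of that library lies far above all others, while the medians of Bckdhb are higher in gastrocnemius than in soleus in both treatments.

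In soleus, most of the pathway's genes were lower after ischemia than after sham: 29 of 36 had a negative log2 fold change and 7 a positive one. The median log2 fold change of the 36 genes was -0.53, beside -0.04 over all genes tested. Ivd, Pcca, Auh, Hibadh and Aldh2 fell, and 0 rose. Those are 5 of 36 genes (13.9%), against 1.03% of all genes tested, of which 0.505% were called lower and 0.53% higher. Without sham soleus 4, 15 of the 36 (41.7%) fell, the same 5 among them, and 0 rose, against 6.15% of all genes called, 3.52% lower and 2.63% higher. The median was then -0.46, beside -0.01 over all genes. The groups did not overlap for 12 of the 36 genes, 11 of them lower, against 13.5% of all genes, 6.62% with ischemia lower and 6.89% with ischemia higher. Leaving sham soleus 4 out, they were apart for 19 genes, against 22.6% of all genes. By deposited FPKM the groups were apart for 7 genes, 5 of them lower, against 18.6% of all genes, and without sham soleus 4 for 12, 10 of them lower, against 23.5%. In whole-muscle RNA, fewer cells of a type and less RNA per cell cannot be told apart. The medians depend on the scaling: with library totals in place of TMM factors the median of all genes was 0.31 and that of the 36 genes -0.19. With limma on log2 FPKM plus 1 or plus 0.1, the median of the 36 genes was -0.04 or -0.03. Over all genes it was then 0.31 or 0.42.

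The calls on all 20 libraries were fragile. They went to 0 when ischemic gastrocnemius 3 or 5, sham gastrocnemius 5, ischemic soleus 1, 2, 3 or 4, or sham soleus 1 or 2 was left out, to 1 without ischemic gastrocnemius 4 or ischemic soleus 5, and to between 9 and 15 without ischemic gastrocnemius 1 or 2, sham gastrocnemius 1 or sham soleus 3, 4 or 5. Starting from the 15 calls without sham soleus 4, leaving out sham soleus 2 as well left 1, ischemic soleus 4 left 6 and sham soleus 1 left 9. Except for the fit that leaves out sham soleus 4 alone, the share of all genes called in these fits is not given. A loss or gain of calls among the pathway's genes therefore cannot be told from a general change in calls. The gastrocnemius libraries lie outside this comparison but enter the shared estimate of spread.

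**Figure D2:**
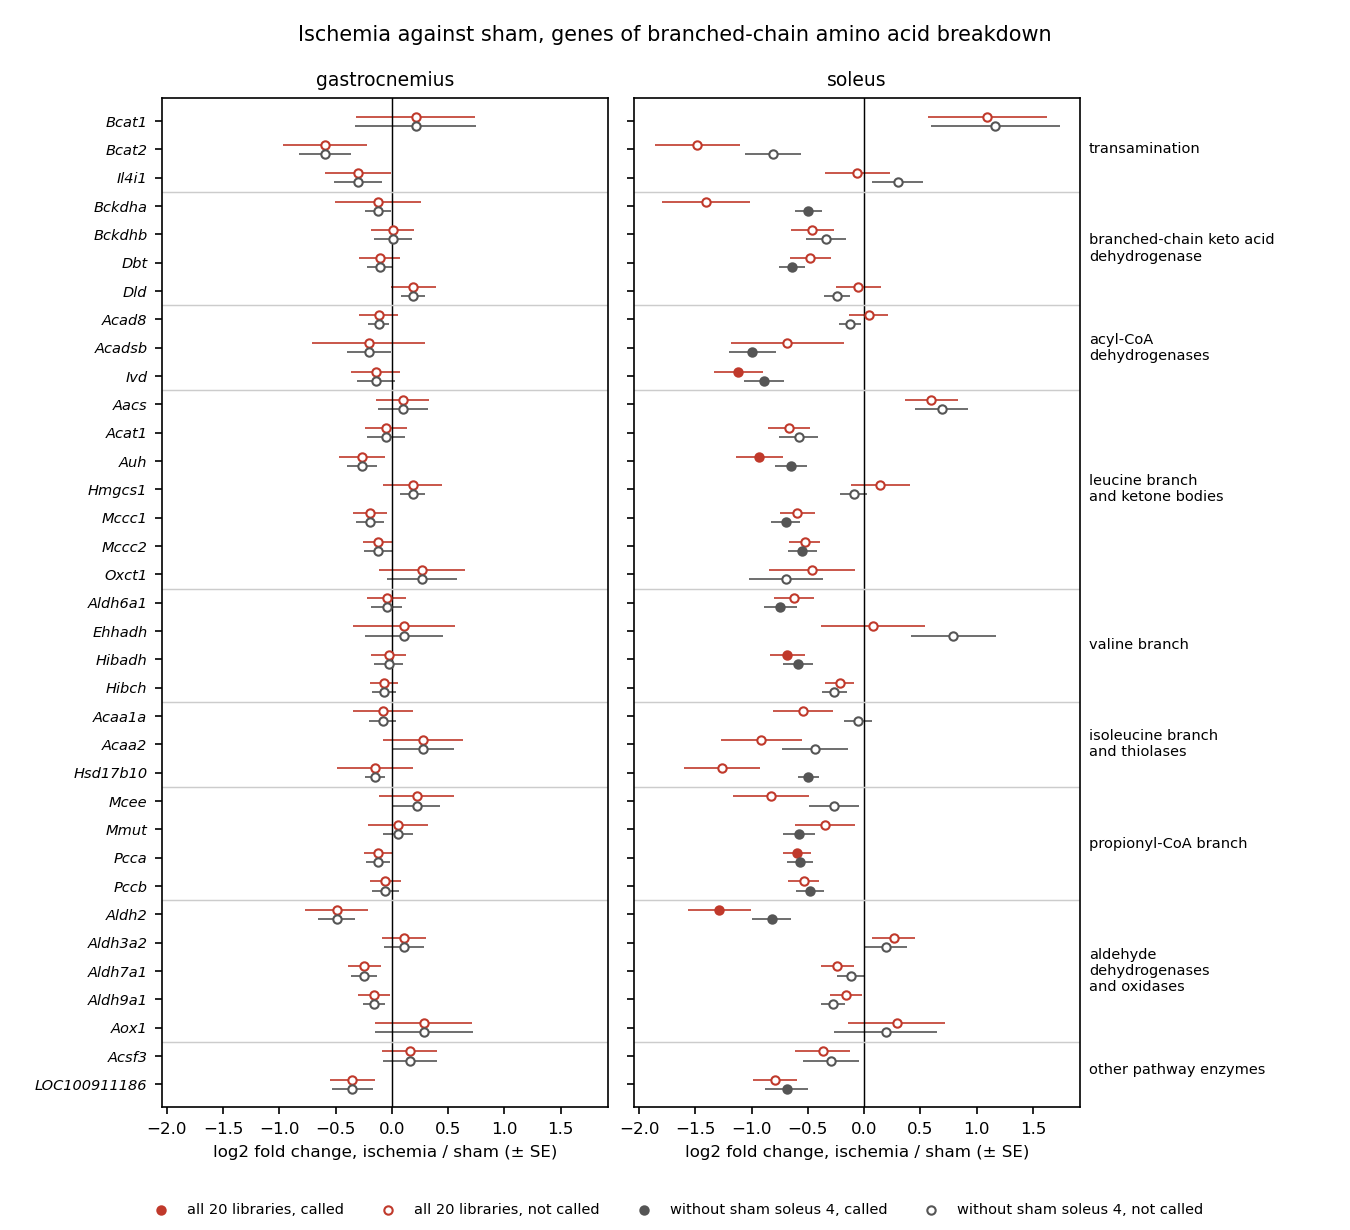
Log2 fold change of the pathway's genes (all but 1), ischemia over sham, in gastrocnemius (left) and soleus (right), with its standard error, from all 20 libraries (red) and without sham soleus 4 (grey); filled points were called. In soleus the points lie mostly left of 0, with 5 called on all libraries and 15 without library 4, while none is filled in gastrocnemius.

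Ivd is isovaleryl-CoA dehydrogenase, the enzyme after the keto acid dehydrogenase in the leucine branch (chromosome 3, 110669312 to 110690173 in the table). It had 144, 129, 122, 117 and 162 CPM in ischemic soleus libraries 1 to 5, against 229.9, 272, 257, 463 and 242 CPM in sham soleus. In CPM every ischemic library was below every sham library, and sham soleus 4 was the highest by far. In FPKM the groups were apart too, with means of 73.4 ± 10.2 FPKM in ischemic soleus and 117 ± 11.3 FPKM in sham soleus, where library 4 was the lowest at 102 FPKM. Its log2 fold change was -1.12 ± 0.22 (SE; edgeR adjusted p = 0.0383), and -0.89 ± 0.18 without that library (edgeR adjusted p = 0.0145). Pcca encodes the biotin-carrying alpha subunit of propionyl-CoA carboxylase (chromosome 15, 108960562 to 109306603). It had 21.2, 18.5, 21.2, 16.3 and 23.2 CPM in ischemic soleus and 28.8, 32.3, 28.8, 32.9 and 29.5 CPM in sham soleus. In CPM sham soleus 4 was close to the rest of its group, and the groups did not overlap. In FPKM library 4 had 6.90, below both the other sham soleus libraries and the ischemic range of 8.66 to 12.2 FPKM. The log2 fold change was -0.60 ± 0.13 (edgeR adjusted p = 0.0388), and -0.57 ± 0.12 without sham soleus 4 (edgeR adjusted p = 0.0145).

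Auh, the methylglutaconyl-CoA hydratase of the leucine branch, which is also known to bind AU-rich RNA (chromosome 17, 12310214 to 12405205), had 19.3, 17.9, 15.2, 15.4 and 20.7 CPM in ischemic soleus and 28.3, 26.3, 25.9, 57.9 and 30.8 CPM in sham soleus. The groups did not overlap with or without library 4, the highest of its group. Its log2 fold change was -0.93 ± 0.21 (edgeR adjusted p = 0.0418), and -0.65 ± 0.14 without that library (edgeR adjusted p = 0.0177). Hibadh, the hydroxyisobutyrate dehydrogenase of the valine branch (chromosome 4, 82604373 to 82702429), had 79.7 to 113 CPM in ischemic soleus and 144 to 206 CPM in sham soleus. It fell by 0.68 ± 0.15 on the log2 scale (edgeR adjusted p = 0.0418). Hibadh overlaps LOC685391 on the same strand, so its counts may hold reads of that gene. In FPKM its sham soleus 4 value of 55.8 lay inside the ischemic range of 54.6 to 76.8 FPKM. Aldh2, the mitochondrial aldehyde dehydrogenase known for clearing acetaldehyde (chromosome 12, 40466495 to 40498752), had 123, 132, 133, 103 and 138 CPM in ischemic soleus and 252, 227, 216, 646 and 196 CPM in sham soleus. Sham soleus 4 stood far above the next library, and the groups were apart without it too. The log2 fold change of Aldh2 was -1.29 ± 0.28 (edgeR adjusted p = 0.0418), and -0.82 ± 0.17 without sham soleus 4 (edgeR adjusted p = 0.0156).

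**Figure D3:**
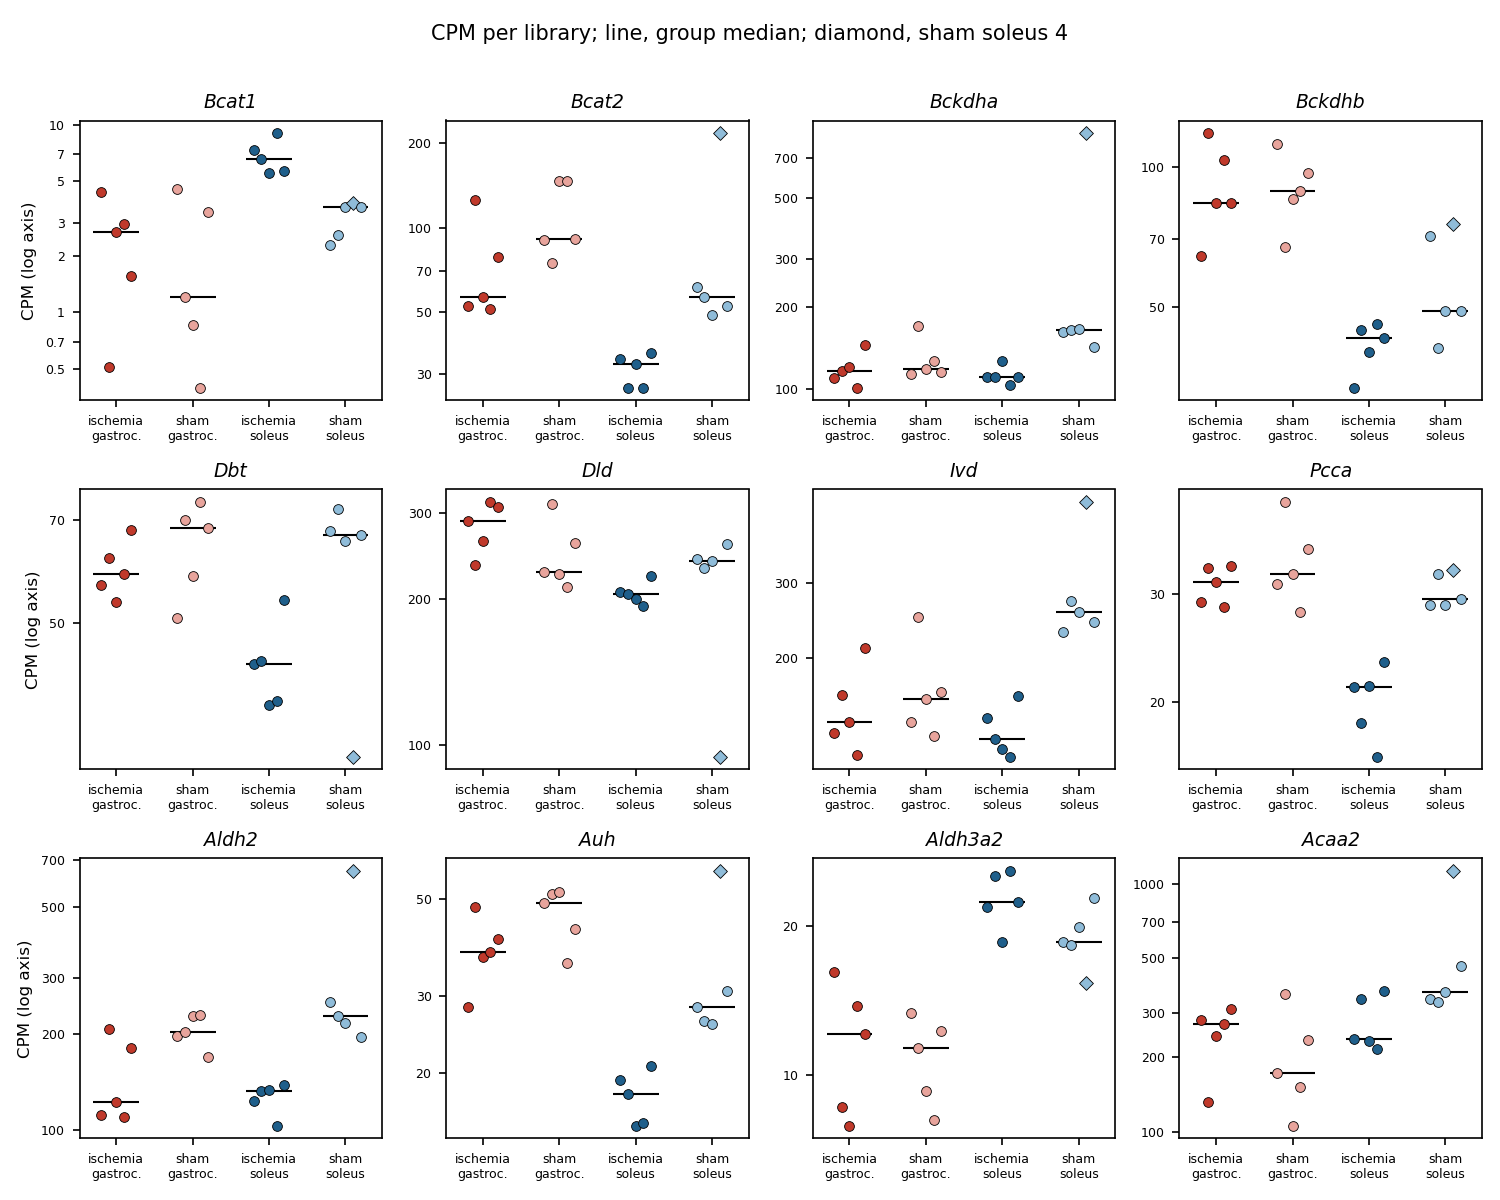
CPM of 12 genes of the pathway in each library, on log axes that differ between panels, with the group median as a line and sham soleus library 4 as a diamond. For Ivd, Pcca, Aldh2 and Auh all 5 ischemic soleus libraries lie below all sham soleus libraries, while the gastrocnemius groups overlap in every panel.

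The 250 bases before the RefSeq transcription start are shown for the genes called in soleus, because these members moved in one direction, with sequences from RefSeq's rat assembly GRCr8, in which 4 of the 5 matched. They run from 5′ to 3′ on the gene's strand, and capitals mark CCAAT and GGGCGG, or their reverse complements, since both strands were searched, with no overlap between the marked matches. The windows are chr3:126305334-126305583 on the plus strand for Ivd, chr15:106034368-106034617 on the plus strand for Pcca, chr17:12481171-12481420 on the plus strand for Auh and chr4:83077820-83078069 on the minus strand for Hibadh.
Ivd: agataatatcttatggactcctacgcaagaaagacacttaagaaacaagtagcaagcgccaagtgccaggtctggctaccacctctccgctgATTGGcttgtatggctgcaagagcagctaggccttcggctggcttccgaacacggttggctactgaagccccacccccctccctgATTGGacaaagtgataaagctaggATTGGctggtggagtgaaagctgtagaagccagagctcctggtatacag
Pcca: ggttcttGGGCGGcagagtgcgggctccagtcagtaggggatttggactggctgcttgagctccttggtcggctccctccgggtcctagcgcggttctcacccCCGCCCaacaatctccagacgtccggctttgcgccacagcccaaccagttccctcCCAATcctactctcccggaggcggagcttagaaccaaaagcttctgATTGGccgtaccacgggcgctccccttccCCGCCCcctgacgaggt
Auh: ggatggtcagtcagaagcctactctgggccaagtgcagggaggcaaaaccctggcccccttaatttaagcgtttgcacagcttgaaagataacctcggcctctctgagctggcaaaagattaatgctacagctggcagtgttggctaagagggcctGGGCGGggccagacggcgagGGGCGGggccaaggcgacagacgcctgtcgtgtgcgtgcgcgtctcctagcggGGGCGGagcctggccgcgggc
Hibadh: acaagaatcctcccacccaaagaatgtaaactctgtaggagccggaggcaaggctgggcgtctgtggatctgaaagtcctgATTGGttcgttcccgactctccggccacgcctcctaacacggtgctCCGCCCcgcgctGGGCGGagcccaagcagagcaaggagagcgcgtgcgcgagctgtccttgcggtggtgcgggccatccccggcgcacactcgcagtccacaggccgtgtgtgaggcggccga
Ivd has 3 CCAAT boxes, the first bases of which lie 158, 73 and 49 bases before the start, and no GGGCGG. Auh has 3 GGGCGG, at 94, 74 and 21 bases, and no CCAAT. Pcca has 2 CCAAT and 3 GGGCGG, and Hibadh has 1 CCAAT and 2 GGGCGG.

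Of the 36 genes, 29 had a promoter entry of this length. CCAAT was in 19 of the 29 (65.5%), and in 35.9% of the promoters of the 8421 genes tested that had one. GGGCGG was in 22 of 29 (75.9%), against 60.4%, and TATAAA in 2 of 29 (6.90%), against 6.35%. These 3 motifs were chosen after the data were seen. The motif TNAAGGTCA, a site of estrogen-related receptors, was in 0 of the 29, against 0.475%. The palindromic NRF1 motif was in 0, against 1.89%, the direct repeat motif of PPAR with RXR in 0, against 0.036%, and the E-box CACGTG in 0, against 8.41%. The median GC content was 60.0% in the 29 promoters, against 60.4%.

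At the first step, the transamination genes gave 0 calls of 3 in soleus with either set of libraries. Bcat2, the mitochondrial aminotransferase, had 34.0, 26.9, 32.6, 26.9 and 35.6 CPM in ischemic soleus and 61.2, 56.4, 48.8, 217 and 52.4 CPM in sham soleus. All ischemic libraries lay below all sham libraries, and sham soleus 4 was far above its group. The log2 fold change of -1.48 ± 0.38 missed the threshold (edgeR adjusted p = 0.0521), as did -0.81 ± 0.25 without that library (edgeR adjusted p = 0.0552). Bcat1, the cytosolic aminotransferase, had 7.35, 6.59, 5.52, 9.03 and 5.69 CPM in ischemic soleus, against 2.28, 2.60, 3.67, 3.85 and 3.63 CPM in sham soleus. It was the gene with the largest positive difference: every ischemic library was above every sham library, but its log2 fold change of 1.09 ± 0.53 was not called (edgeR adjusted p = 0.183). As a description chosen after the values were seen, the FPKM ratio of Bcat2 to Bcat1 was 5.16 to 10.9 in the ischemic soleus libraries, against 23.1 to 98.0 in sham soleus. Il4i1, an L-amino acid oxidase known from immune cells, had a log2 fold change of -0.06 ± 0.29 (edgeR adjusted p = 0.916).

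At the committed step, 0 of the 4 subunit genes were called on all 20 libraries and 2 fell without sham soleus 4. Bckdha had 111, 111, 128, 104 and 111 CPM in ischemic soleus, against 162, 165, 167, 863 and 143 CPM in sham soleus. Sham soleus 4 was far above any other library, and the remaining 4 still lay above all ischemic libraries. The log2 fold change was -1.41 ± 0.39 with that library (edgeR adjusted p = 0.0594) and -0.50 ± 0.12 without it (edgeR adjusted p = 0.0288). For Dbt the same library went the other way: Dbt had 43.8, 44.1, 38.2, 38.8 and 53.9 CPM in ischemic soleus and 67.6, 72.6, 65.5, 32.3 and 66.7 CPM in sham soleus. Without library 4 the groups did not overlap, and Dbt fell by 0.64 ± 0.12 on the log2 scale (edgeR adjusted p = 0.0101), against a log2 fold change of -0.48 ± 0.18 with it (edgeR adjusted p = 0.0998). Dld had 207, 205, 199.7, 193 and 223 CPM in ischemic soleus and 241, 231, 239, 94.6 and 259 CPM in sham soleus. Without library 4, the lowest of all, the groups were apart, but the log2 fold change of -0.24 ± 0.11 was not called (edgeR adjusted p = 0.181). Bckdhb had log2 fold changes of -0.46 ± 0.19 and, without library 4, -0.34 ± 0.18, neither of them called.

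Of the 3 acyl-CoA dehydrogenases, 1 fell on all libraries, Ivd, and 2 without sham soleus 4. Acadsb of the isoleucine branch had 19.1 to 26.9 CPM in ischemic soleus, against 39.6 to 47.4 CPM in 4 sham soleus libraries and 1.22 CPM in library 4. It was called only without that library, with a log2 fold change of -0.99 ± 0.21 (edgeR adjusted p = 0.0156), against -0.68 ± 0.50 with it. Acad8, the isobutyryl-CoA dehydrogenase of the valine branch, had 18.1 to 21.8 CPM in ischemic soleus and 9.66 to 23.4 CPM in sham soleus, and was not called.

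The leucine branch and ketone body genes counted 1 of 8 lower calls, that of Auh, and 3 of 8 without sham soleus 4. Those 3 held both subunits of methylcrotonyl-CoA carboxylase: Mccc1 fell by 0.70 ± 0.13 and Mccc2 by 0.55 ± 0.13 on the log2 scale (edgeR adjusted p = 0.0111 and 0.0255). Mccc1 overlaps Dcun1d1 on the same strand. Acat1 had 357 ± 60.7 CPM in ischemic soleus and 567 ± 95.6 CPM in sham soleus, a log2 fold change of -0.67 ± 0.18 that missed the threshold (edgeR adjusted p = 0.0594). Aacs, a cytosolic acetoacetyl-CoA synthetase, differed the other way, with 2.79 ± 0.452 CPM in ischemic soleus and 1.85 ± 0.403 CPM in sham soleus, but was not called (log2 fold change 0.60 ± 0.24, edgeR adjusted p = 0.115). Hmgcs1, the cytosolic HMG-CoA synthase of cholesterol synthesis, had a log2 fold change of 0.14 ± 0.26 and was not called. It had 26.1 to 30.3 CPM in ischemic soleus, against 26.0 to 34.5 CPM in sham soleus outside library 4 and 7.07 CPM in it. Oxct1 had 522 to 969.7 CPM in ischemic soleus, against 890.2 to 1156 CPM in sham soleus outside library 4 and 265 CPM in it, and was not called in either fit.

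In the valine branch, Aldh6a1, the methylmalonate semialdehyde dehydrogenase, joined Hibadh without sham soleus 4: it had 199.6 ± 23.4 CPM in ischemic soleus and 334 ± 26.2 CPM in 4 sham soleus libraries, a log2 fold change of -0.74 ± 0.15 (edgeR adjusted p = 0.0130). Hibch, the hydroxyisobutyryl-CoA hydrolase that acts before both, had a log2 fold change of -0.22 ± 0.13 and was not called. Ehhadh, a peroxisomal bifunctional enzyme, had 1.03 to 3.88 CPM in ischemic soleus and 0.977 to 5.41 CPM in sham soleus, and was not called. In the isoleucine branch, Hsd17b10, a hydroxyacyl-CoA dehydrogenase that is also part of mitochondrial RNase P, had 45.1 to 51.9 CPM in ischemic soleus, against 64.4 to 69.9 CPM in sham soleus outside library 4 and 306 CPM in it. It was called only without that library, at -0.50 ± 0.09 (edgeR adjusted p = 0.0111), against -1.26 ± 0.34 with it (edgeR adjusted p = 0.0581). The mitochondrial thiolase Acaa2, at -0.91 ± 0.36, and the peroxisomal thiolase Acaa1a, at -0.55 ± 0.27, were not called. Sham soleus 4 was far above its group for both, with 1122 CPM against 334 to 467 CPM for Acaa2 and 28.1 against 7.82 to 10.8 CPM for Acaa1a. Without it the log2 fold changes were -0.43 and -0.05 in that order, again not called.

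In the propionyl-CoA branch, 1 of 4 genes fell on all libraries and 3 of 4 without sham soleus 4. Pccb, the beta subunit of the carboxylase, had 60.4 ± 9.82 CPM in ischemic soleus and 84.4 ± 7.21 CPM in the 4 sham soleus libraries, and fell by 0.48 ± 0.12 on the log2 scale (edgeR adjusted p = 0.0332). Mmut, the cobalamin-dependent methylmalonyl-CoA mutase, had 56.1 ± 8.36 CPM against 83.8 ± 6.09 CPM, a log2 fold change of -0.58 ± 0.14 (edgeR adjusted p = 0.0285). Mcee, the epimerase between them, was not called (-0.27 ± 0.22 without library 4). The FPKM ratio of Pcca to Pccb, again a description, was alike in the 4 groups, with means between 0.298 and 0.323.

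Of the 5 aldehyde dehydrogenases and oxidases, Aldh2 alone was called in soleus. Aldh3a2, a fatty aldehyde dehydrogenase, Aldh7a1, which acts in lysine breakdown, Aldh9a1, which acts in carnitine synthesis, and the oxidase Aox1 had log2 fold changes between -0.24 and 0.29. Of the remaining 2 genes, LOC100911186, annotated as a mitochondrial enoyl-CoA hydratase-like gene, fell without sham soleus 4 (-0.69 ± 0.19, edgeR adjusted p = 0.0418). It is a near copy of Echs1, and how reads were split between the pair is uncertain. Acsf3, a mitochondrial malonyl-CoA synthetase, was not called. Whether counting used the strand is not stated. Hibadh, Mccc1, Hsd17b10, Aldh6a1, Mmut, Acsf3 and LOC100911186 each overlap a gene on the other strand, so their values may hold such reads.

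Lists beside the pathway give its surroundings in soleus. Of 8 regulators and transporters tested, 1 fell: Klf15, a transcription factor known to drive branched-chain amino acid breakdown in mouse muscle, had 13.5 ± 3.03 CPM in ischemic soleus and 31.5 ± 12.9 CPM in sham soleus, a log2 fold change of -1.22 ± 0.25 (edgeR adjusted p = 0.0383), or -0.93 ± 0.20 without sham soleus 4 (edgeR adjusted p = 0.0156). Bckdk, the kinase that inhibits the complex, had -0.05 ± 0.11 without library 4, and Ppm1k, the phosphatase that activates it, -1.02 ± 0.37; neither was called. Of the 6 genes left out, all had negative log2 fold changes and Echs1 was called (-0.85 ± 0.20, edgeR adjusted p = 0.0493). Of 16 citric acid cycle genes, 15 had negative log2 fold changes, with 0 called and 3 without library 4, and a median of -0.42 or -0.32. All 26 nuclear genes of oxidative phosphorylation had negative log2 fold changes, with 0 called in either fit (20 and 10 at an unadjusted p below 0.05) and a median of -0.61 or -0.26. Among 10 genes of cobalamin handling 0 were called, and 1 without library 4. Of 5 lipoylation and 7 amino nitrogen genes 0 were called in either fit.

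Summed markers of other cells were mostly higher in ischemic soleus. The 9 fibroblast genes summed to 3465 to 8734 CPM in ischemic soleus and 1385 to 2120 CPM in sham soleus, all 9 had positive log2 fold changes, and 1 rose (3 without library 4). The 10 macrophage genes summed to 264 to 427 CPM, against 92.2 to 211 CPM outside library 4 and 552 CPM in it, with 0 called. The 9 endothelial genes summed to 249 to 353 CPM, against 201 to 232 CPM, and Cldn5, a tight-junction gene, was listed at 0 in every ischemic library. The 8 adipocyte genes summed to 148 to 671 CPM, against 113 to 257 CPM. The 11 slow-fibre genes summed to 54836 to 71116 CPM in ischemic soleus and 90453 to 99274 CPM in sham soleus outside library 4. Their part in the lower levels of the pathway's genes was not tested.

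In gastrocnemius, no gene of the pathway passed the test between ischemia and sham. On all 20 libraries 0 of 36 genes were called by edgeR, by DESeq2 or by limma on FPKM, 0 had an unadjusted p below 0.05, and 0% of all genes were called by edgeR, with 727 at an unadjusted p below 0.05. Log2 fold changes ran from -0.60 for Bcat2 to 0.28, with 14 positive and 22 negative. Their median was -0.06, beside 0.00 over all genes, and turned to 0.02 with library totals in place of TMM factors. The groups overlapped for every one of the 36 genes, while 1.41% of all genes had groups that did not. Without sham soleus 4 there were again 0 calls, against 0.0513% of all genes, and 2 of the 36 had an unadjusted p below 0.05.

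Those 2 were Bcat2 and Aldh2. Bcat2 had 52.4, 125, 56.6, 51.4 and 78.3 CPM in ischemic gastrocnemius, against 90.4, 74.5, 147, 147 and 91.1 CPM in sham gastrocnemius. Ischemic libraries 2 and 5 lay within the sham range and the other 3 below it. The log2 fold change was -0.60 ± 0.23 without sham soleus 4 (edgeR adjusted p = 0.235). Bcat2 was called lower by limma voom with library quality weights (log2 fold change -0.66, adjusted p = 0.0368), and by edgeR once ischemic gastrocnemius 2 was left out as well as sham soleus 4 (-0.88, adjusted p = 0.0281). Aldh2 had 111, 206, 122, 109.9 and 179.9 CPM in ischemic gastrocnemius and 196, 203, 227, 229 and 169 CPM in sham gastrocnemius, with ischemic libraries 2 and 5 again within the sham range and the other 3 below it. Its log2 fold change was -0.49 ± 0.16 without sham soleus 4 (edgeR adjusted p = 0.187), and -0.65 without ischemic gastrocnemius 2 as well (edgeR adjusted p = 0.0292). In ischemic gastrocnemius 2 the slow-fibre Myh7 was 0.176% of Myh7 plus the fast-fibre Myh4. The rest of its group had 5.95% to 17.6%, and sham gastrocnemius 3 and 4 had 0.207% and 0.357%. Bcat2 and Aldh2 were highest of their groups in these slow-poor libraries. Leaving ischemic gastrocnemius 2 out thus changes the fibre make-up of its group. The part of fibre type in these calls was not tested.

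The other genes called in soleus had smaller differences in gastrocnemius. Ivd averaged 153 ± 36.2 CPM in ischemic gastrocnemius and 169 ± 46.9 CPM in sham gastrocnemius, a log2 fold change of -0.14 ± 0.22. For Pcca the means were 31.1 ± 2.20 and 33.9 ± 5.44 CPM in the same order (-0.12 ± 0.13), for Auh 38.3 ± 7.05 and 46.1 ± 6.86 CPM (-0.27 ± 0.21), and for Hibadh 119 ± 13.5 and 121 ± 26.1 CPM (-0.03 ± 0.15). None of them was called. The log2 fold changes of the complex subunits ranged from -0.12 for Bckdha to 0.19 for Dld.

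Whether the response differed between the muscles was tested directly, as the log2 fold change in gastrocnemius minus that in soleus. Of 36 genes 29 had a positive difference, with a median of 0.47 beside 0.05 over all genes. With library totals in place of TMM factors that median was 0.18, beside -0.21 over all genes. No gene passed the test: edgeR, DESeq2 and limma called 0 of 36, and 0% of all genes were called by edgeR. An unadjusted p below 0.05 was reached by 12 of the 36 and by 758 of all genes. Leaving sham soleus 4 out, the calls stayed at 0 of 36, against 0.00855% of all genes, 15 of the 36 had an unadjusted p below 0.05 and the median was 0.36. The smallest p on all libraries was that of Ivd, at 0.98 ± 0.31 (edgeR adjusted p = 0.722), and without sham soleus 4 that of Aldh6a1, at 0.70 ± 0.20 (edgeR adjusted p = 0.499). The lower levels in ischemic soleus were thus not shown to differ from the response of gastrocnemius. This test shares its libraries with the single-muscle comparisons.

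After ischemia, several genes of the pathway were higher in gastrocnemius than in soleus. Ehhadh, Bckdhb, Auh, Pccb, Bcat2 and Pcca were called higher and Aldh3a2 lower, 7 of 36 genes (19.4%), against 12.6% of all genes called, 7.87% higher and 4.73% lower. The median log2 fold change of the 36 genes, gastrocnemius over soleus, was 0.20, beside -0.03 over all genes, and turned to -0.16, beside -0.38, with library totals. Without sham soleus 4, a library outside this comparison that enters the shared estimate of spread, 14 genes were higher and 2 lower, 44.4% in all, against 32.4% of all genes, 17.2% higher and 15.1% lower. These 16 included the 7. The groups did not overlap for 13 of the 36 genes, against 21% of all genes, 11.4% with gastrocnemius higher and 9.68% with it lower.

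Bckdhb, the beta subunit of the decarboxylating enzyme, had 64.5, 118, 83.4, 103 and 83.5 CPM in ischemic gastrocnemius and 33.6, 44.5, 40.1, 45.9 and 43.0 CPM in ischemic soleus. Every gastrocnemius library was above every soleus library, at 1.13 ± 0.19 on the log2 scale (edgeR adjusted p = 0.000725). Its partner Bckdha had 119 ± 16.6 and 113 ± 8.71 CPM in the same order, and 0.07 ± 0.38 on the log2 scale. Auh had 28.3, 47.9, 36.9, 37.8 and 40.6 CPM in ischemic gastrocnemius, above all 5 ischemic soleus values given earlier, with a log2 fold change of 1.11 ± 0.21 (edgeR adjusted p = 0.00152). Both propionyl-CoA carboxylase subunits were higher in gastrocnemius with groups apart, Pcca by 0.63 ± 0.13 and Pccb by 0.68 ± 0.14 (edgeR adjusted p = 0.00265 and 0.00276).

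Bcat2 averaged 72.8 ± 31.3 CPM in ischemic gastrocnemius and 31.2 ± 4.09 CPM in ischemic soleus, with no overlap and a log2 fold change of 1.22 ± 0.38 (edgeR adjusted p = 0.0393). Bcat1 went the other way, with 4.40, 0.514, 2.69, 2.95 and 1.56 CPM in ischemic gastrocnemius, all below the ischemic soleus values. It was called only without sham soleus 4, at -1.50 ± 0.54 (edgeR adjusted p = 0.0416). Ehhadh averaged 7.56 ± 1.37 CPM in ischemic gastrocnemius and 2.16 ± 1.20 CPM in ischemic soleus, a log2 fold change of 1.80 ± 0.47 (edgeR adjusted p = 0.0165). Since Ehhadh met the FPKM minimum mainly through gastrocnemius and Bcat1 mainly through soleus, the choice of genes may favour both differences. Aldh3a2 had 16.2, 8.65, 7.92, 13.8 and 12.1 CPM in ischemic gastrocnemius and 21.8, 25.3, 18.5, 25.8 and 22.4 CPM in ischemic soleus. Its groups did not overlap, and the log2 fold change was -0.96 ± 0.19 (edgeR adjusted p = 0.00280). The genes added without sham soleus 4, besides Bcat1, were Acad8, Acadsb, Dbt, Dld, Hsd17b10, Mccc1, Mccc2 and Mmut, all higher in gastrocnemius, by 0.29 to 0.96 on the log2 scale.

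**Figure D4:**
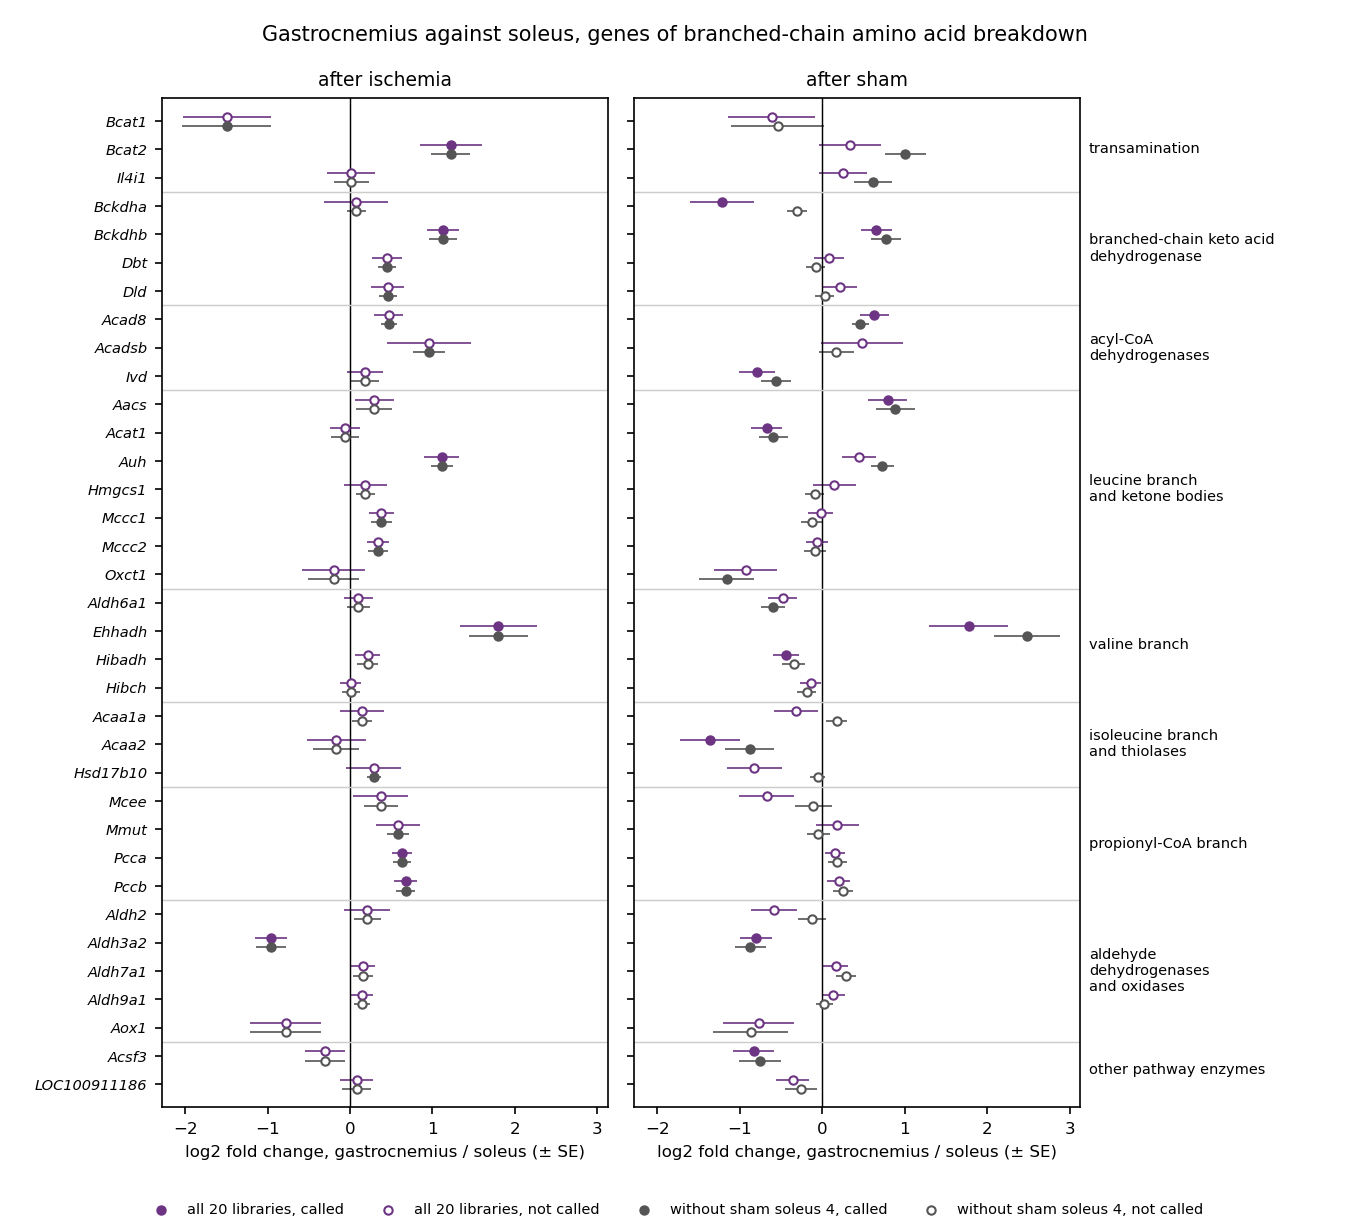
Log2 fold change of the pathway's genes (all but 1), gastrocnemius over soleus, after ischemia (left) and after sham (right), with its standard error, from all 20 libraries (purple) and without sham soleus 4 (grey); filled points were called. Ehhadh and Bckdhb lie right of 0 and Aldh3a2 left of 0 in both treatments, and the 7 genes called after ischemia on all libraries are filled.

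After sham, the differences between the muscles went in both directions. On all 20 libraries 12 of 36 genes were called, 4 higher and 8 lower in gastrocnemius, or 33.3%, against 24.9% of all genes, 11.4% higher and 13.5% lower. The median log2 fold change was -0.10, as over all genes. In the fit without sham soleus 4, 14 were called, 7 in each direction, 9 of them among the 12, or 38.9%, against 35.4% of all genes. Groups did not overlap for 3 of the 36 genes, against 16.8% of all genes, 9.1% with gastrocnemius higher and 7.69% with it lower, and for 9 without that library, against 29.4%. Bckdhb was called in both fits, with 112, 67.2, 85.4, 88.5 and 96.7 CPM in sham gastrocnemius and 70.9, 40.9, 49.1, 75.3 and 49.1 CPM in sham soleus. Sham soleus 1 and 4 reached into the gastrocnemius range, and the log2 fold change was 0.66 ± 0.19 (edgeR adjusted p = 0.0173). Aldh3a2 had 13.4, 11.3, 9.28, 8.12 and 12.3 CPM in sham gastrocnemius and 18.6, 18.3, 19.9, 15.3 and 22.8 CPM in sham soleus. All gastrocnemius libraries were below all soleus libraries, at -0.80 ± 0.19 (edgeR adjusted p = 0.00493).

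Acaa2 had 172, 359, 106, 151 and 236 CPM in sham gastrocnemius and 342, 334, 366, 1122 and 467 CPM in sham soleus, with sham gastrocnemius 2 inside the soleus range. Its log2 fold change was -1.36 ± 0.36 (edgeR adjusted p = 0.0104), and -0.88 ± 0.29 without sham soleus 4 (edgeR adjusted p = 0.0263). Ivd had 141, 249, 159.6, 131 and 166 CPM in sham gastrocnemius, against the sham soleus values given earlier, a log2 fold change of -0.79 ± 0.22 (edgeR adjusted p = 0.0124). Acat1 at -0.68 ± 0.19 and Acsf3 at -0.83 ± 0.25 were called lower in both fits, and Ehhadh at 1.77 ± 0.47, Aacs at 0.79 ± 0.24 and Acad8 at 0.63 ± 0.18 higher in both. Bckdha and Hibadh were among those called lower only with sham soleus 4, whose Bckdha value lay far above its group: Bckdha was -1.21 ± 0.39 with it and -0.30 ± 0.12 without it. Aldh6a1 at -0.60 ± 0.15 and Oxct1 at -1.16 ± 0.33 were called lower, and Bcat2 at 1.01 ± 0.25, Auh at 0.73 ± 0.14 and Il4i1 at 0.61 ± 0.23 higher, only without it. Ehhadh, Aacs and Il4i1 had 0 sham soleus libraries at 1 FPKM or more, so the FPKM minimum may favour their calls.

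Genes around the pathway also differed between the muscles, on all 20 libraries, as did many others: 12.6% of all genes were called after ischemia and 24.9% after sham. Among the regulators and transporters, 4 of 8 were higher in gastrocnemius after ischemia: Slc7a8 at 1.43 ± 0.26 and Slc43a1 at 1.29 ± 0.26, transporters of large neutral amino acids, Bckdk at 0.85 ± 0.23 and Klf15 at 0.77 ± 0.24 (edgeR adjusted p = 0.00115, 0.00308, 0.0178 and 0.0443). After sham Slc7a8 and Slc43a1 were higher, at 2.46 ± 0.27 and 2.16 ± 0.27, and Slc3a2, the heavy chain shared by amino acid transporters, was lower at -0.78 ± 0.23. Among the amino nitrogen genes, 4 of 7 were higher in gastrocnemius after ischemia and 3 of 7 after sham, with Gpt2, a mitochondrial alanine aminotransferase, at 4.37 ± 0.52 and 5.85 ± 0.56 in that order. Of the 16 citric acid cycle genes 5 were higher after ischemia. Of the 6 genes left out, 0 were called after ischemia and 4 were lower in gastrocnemius after sham. Fibre type differs between these muscles by their nature, and its part in these values was not tested.

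Over single libraries, the median deviation of the 36 genes from each gene's mean log2 level lay between -0.09 and 0.18 in ischemic gastrocnemius, -0.11 and 0.33 in sham gastrocnemius, -0.40 and -0.05 in ischemic soleus and 0.14 and 0.36 in sham soleus. As a description with no test, all 5 ischemic soleus libraries were below 0 and all 5 sham soleus libraries above it on this TMM scale. With library totals in place of TMM factors, ischemic soleus lay between -0.08 and 0.27, sham soleus 4 at -0.65 and the other sham soleus libraries between 0.24 and 0.33, so that the groups overlapped.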

How the data were processed

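Gene expression was measured in 20 rat muscle libraries, in 4 groups of 5 taken from the labels. Per the labels' protocols, poly(A) RNA was made into stranded TruSeq libraries and sequenced as paired ends on a NovaSeq instrument. Per the file headers, the authors deposited a count per gene and library, and FPKM beside it. The deposited counts need not be whole and were treated as estimated counts, rounded to whole numbers. The aligner, counter, genome build and annotation are not named in the labels or headers, so gene positions are those in the table. Totals were 53572270 to 85416565 counts. Among counts of 1 to 40, multiples of 4 made up 28.3% to 36.5%, so low values may carry fewer independent fragments than they count.

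Genes at 1 FPKM or more in at least 5 libraries were tested (11693) with edgeR 4.0.16 in R 4.3.3 (TMM, robust quasi-likelihood test, 4 group terms, all libraries, Benjamini-Hochberg threshold 0.05). SE is the log2 fold change divided by the root of F. Alternatives used DESeq2 1.42.0 and limma 3.58.1. Each fit was repeated without sham soleus 4. The edgeR code was tested on simulated counts. The number of columns of per-sample values not used was 0. The labels do not state separate animals, so p-values measure only the spread between these libraries, which may be technical.

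The members and lists were chosen with earlier results of these data known. Every member called in any comparison, with or without sham soleus 4, and the aminotransferase and keto acid dehydrogenase genes were described with values; 12 were given per library. Other genes came from the lists. The values of 1 member are not reported here, though the counts and medians include it. Promoters are RefSeq's, from assembly GRCr8.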

Additional observations from a re-analysis of the deposited data

Results flagged for a closer look

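In groups of 5, a library was singled out where its gap to the nearest other library exceeded 0.71 of the group's range (Dixon's test). Of 56 such checks, over the 12 genes given per library, the pathway's share of all counts and the median deviation of its genes in each of 4 groups, 10 passed that limit, and 9 of the 10 were sham soleus 4. A single check passes by chance in about 1 in 20 cases. The 56 checks are linked, since genes of a library share its TMM factor, and some genes were picked because they were called. That rate therefore cannot be set against the 10.

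In TMM-scaled CPM, sham soleus 4 was the highest library of its group for Bckdha at 863 CPM, Bcat2 at 217 CPM, Aldh2 at 646 CPM, Ivd at 463 CPM, Auh at 57.9 CPM and Acaa2 at 1122 CPM. It was the lowest for Dld at 94.6 CPM and Dbt at 32.3 CPM. The 36 genes took 0.297% of its counts as deposited, the lowest share in sham soleus. Its TMM factor of 0.495 enters every CPM given here, and by deposited FPKM its Ivd was the lowest of the group at 102 FPKM. Subunits of one complex thus stood on opposite sides of the group in this library, with Bckdha above and Dbt and Dld below. The remaining check was sham gastrocnemius 2, the highest of its group for Bckdha at 171 CPM.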

How the results depend on the processing

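Counts are of the 36 genes. The share of all genes called under each alternative is not given in this section. A rise or fall in a count therefore cannot be told from a general change in calls. In soleus the 5 calls for ischemia against sham became 9 with DESeq2's size factors in edgeR, 2 with library totals (1 higher, 1 lower), 12 with DESeq2, 22 with limma voom and library quality weights (2 higher, 20 lower), 0 with no filter on low values, 2 with the 2 groups fitted alone (1 higher, 1 lower), 12 with a slow minus fast fibre score as covariate, and 3 with the replicate block. In gastrocnemius the 0 calls became 1 with voom weights. Between muscles, the 12 calls after sham became 1 with groups alone and 0 with the covariate, and the 7 after ischemia became 16 with voom weights, 15 with groups alone and 0 with the covariate. The cause was not tested, except that the covariate follows the muscle. Without sham soleus 4, a choice made after the data were seen, voom weights gave 1 call in gastrocnemius, against 0, and 23 in soleus, against 15. Library totals then gave 8 in soleus, 22 between muscles after sham, against 14, and 10 after ischemia, against 16, and the covariate gave 0 after sham and 7 after ischemia. The difference in response between muscles kept 0 calls in every alternative run.

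Leaving out single libraries gave 0 to 15 calls in soleus, 0 to 0 in gastrocnemius, 0 to 0 for the difference in response, 7 to 14 between muscles after sham and 6 to 16 after ischemia. The 7 came without sham gastrocnemius 3 and the 16 without sham soleus 4. With sham soleus 4 already left out, the ranges were 1 to 18, 0 to 2, 0 to 0, 10 to 16 and 12 to 17 in the same order. The labels do not say whether a number marks 1 rat. Deviations of same-numbered libraries correlated at 0.001 to 0.363 between the ischemic muscles (4 of 5 over 0.1, 3 best with their own number) and at -0.163 to 0.244 between the sham muscles (2 of 5 over 0.1), so pairing was neither given nor seen in every pair. The replicate block gave 3 calls in soleus, 0 in gastrocnemius, 0 for the difference, 10 after sham and 7 after ischemia.

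Of 1511 values of named genes under alternatives, 1218 kept direction and side of the threshold, 107 gained a call, 167 lost one and 19 turned sign. In soleus, Acadsb turned to 0.0579 and 0.3521 and Mmut to 0.1461 and 0.2036 with FPKM plus a pseudocount of 1 and of 0.1. With the fibre covariate after sham, Aacs turned to -0.1113, Acat1 to 0.0327, Hibadh to 0.3323, Acaa2 to 0.7474, Acsf3 to 0.5204, Il4i1 to -0.0398, Bcat2 to -0.8507 and Oxct1 to 0.6271, and after ischemia Bcat1 to 0.3103. After ischemia, Hsd17b10 turned to -0.0663, -0.0661 and -0.0672 and Mccc2 to -0.0172, -0.0073 and -0.0073 with library totals and the 2 FPKM scales.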
